A study of Mus musculus with 6 samples.

Results

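Transcripts of the skeletal muscle fibre were followed in libraries of sorted mesenchymal stromal cells, which belong to connective tissue and lie between fibres in muscle and form the scaffold in lymph nodes. The 10 genes were taken by symbol: Acta1, Mylpf, Myh4, Tnnt3, Tnni2, Tnnc2, Atp2a1, Pvalb, Ckm and Mb. All 10 are rows of the count table, which holds 52997 gene symbols. Donor mice were C57BL/6 aged 8 weeks, at rest, with no treatment or engineered allele named in the labels. Tissue was either hindlimb skeletal muscle or pooled inguinal, axillary, brachial and cervical lymph nodes. There were 3 muscle and 3 lymph node libraries, each from 1000 double-sorted cells. Which surface markers were sorted on is not given here. A pair of muscle titles share a number, so whether each muscle library is a separate animal is not known here, and p-values measure the spread between these libraries, which may be technical. Libraries are called by the numbers of the count table, muscle 2, 3 and 4 and lymph node 1, 2 and 3.

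A muscle fibre is a long cell with many nuclei, formed by fusion, and it is far too large to pass a cell sorter whole. Its cytoplasm is filled with sarcomeres, in which thick filaments of myosin pull on thin filaments of actin when calcium binds the troponin complex. Calcium is released from the sarcoplasmic reticulum, pumped back by an ATPase and buffered by parvalbumin, while creatine kinase and myoglobin serve energy and oxygen supply. Most of the 10 genes encode the forms used by fast fibres and are among the most abundant transcripts of mouse hindlimb muscle. Stromal cells are not a usual source of these proteins, and the transcripts serve here as a gauge of fibre RNA in a stromal library. Where the measured transcripts came from was not tested here.

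Promoters are shown for 3 of the genes that differ in their pattern or serve as a point of comparison. Acta1 separated the muscle libraries from each other, Atp2a1 was the fibre gene that passed the test with all libraries, and Ckm is the classical model of a fibre promoter. Each window runs from 250 bases before to 50 bases after the start of the gene in RefSeq (GRCm38.p6). Their genes span chr8:123891769-123894751 (Acta1), chr7:126445858-126463108 (Atp2a1) and chr7:19404776-19422841 (Ckm) in GENCODE M21. The windows lie at chr8:123894726-123895025 on the minus strand for Acta1, at chr7:126463024-126463323 on the minus strand for Atp2a1 and at chr7:19410844-19411143 on the plus strand for Ckm. Capitals mark matches, on either strand, to the E-box CANNTG, to TATAAA and to the CArG box, the motifs bound by myogenic factors, the TATA-binding protein and serum response factor.
Acta1: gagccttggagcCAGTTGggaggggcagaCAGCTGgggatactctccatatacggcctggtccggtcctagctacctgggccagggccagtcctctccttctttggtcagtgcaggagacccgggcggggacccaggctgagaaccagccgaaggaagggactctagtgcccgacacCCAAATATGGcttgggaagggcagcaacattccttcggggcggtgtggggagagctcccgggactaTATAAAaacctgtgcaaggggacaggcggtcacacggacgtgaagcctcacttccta
Atp2a1: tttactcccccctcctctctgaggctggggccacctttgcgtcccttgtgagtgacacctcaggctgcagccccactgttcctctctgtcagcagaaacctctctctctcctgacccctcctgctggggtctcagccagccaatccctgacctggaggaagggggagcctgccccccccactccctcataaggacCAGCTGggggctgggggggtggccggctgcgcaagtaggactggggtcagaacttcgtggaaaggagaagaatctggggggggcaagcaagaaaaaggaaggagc
Ckm: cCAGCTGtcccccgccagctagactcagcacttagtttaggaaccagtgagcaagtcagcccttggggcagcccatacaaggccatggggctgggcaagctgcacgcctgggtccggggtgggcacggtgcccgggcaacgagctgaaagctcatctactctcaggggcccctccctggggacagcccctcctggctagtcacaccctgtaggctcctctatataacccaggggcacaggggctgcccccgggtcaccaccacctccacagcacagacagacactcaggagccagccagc
The Acta1 window held 2 E-boxes, 1 TATAAA and 1 CArG box, and the Atp2a1 and Ckm windows held 1 E-box each. Among 32851 mouse promoter windows of the same length, 72.3% held an E-box, 13.6% held TATAAA and 1.6% held a CArG box. No window of the 3 held a MEF2 site, the binding site of another muscle regulator, which 0.6% of all windows held. These matches describe the letters and say nothing about binding. The other fibre genes lie at chr7:142498836-142516009 (Tnnt3), chr7:142441808-142444410 (Tnni2), chr2:164777161-164779967 (Tnnc2), chr7:127208890-127214298 (Mylpf), chr11:67238029-67260446 (Myh4), chr15:78191114-78206400 (Pvalb) and chr15:77015487-77050670 (Mb). RefSeq windows for Tnnt3 and Tnni2 were not used here.

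Libraries differed in depth and in other cell types. Muscle libraries 2, 3 and 4 summed to 1844874, 1256276 and 415460 gene counts, against 1851940 to 2397134 in lymph node libraries. After scaling, 1 count equalled 0.527, 0.768 and 2.69 CPM (the library-scaled count) in the muscle libraries and between 0.43 and 0.571 CPM in the lymph node libraries. The labelled stromal identity held in all of them: all 14 stromal markers, such as the receptor Pdgfra and the collagen Col3a1, had counts in every library, and their summed level was 117340 to 137316 CPM in muscle libraries, against 163201 to 173275 CPM in lymph node. Muscle library 4 stood apart in blood cell transcripts. Its summed CPM was 559 for 12 T cell genes, 2016 for 8 B cell genes, 769 for 13 myeloid genes and 626 for 6 red blood cell genes, where muscle libraries 2 and 3 held at most 16.9, 45.3, 25.4 and 13.1 CPM. Results for the 10 fibre genes are also given without it.

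Fibre transcripts were rare in both tissues and more frequent in muscle. The 10 genes together had 152, 119 and 18 counts in muscle libraries 2, 3 and 4, against 21, 24 and 23 counts in lymph node libraries 1, 2 and 3. That was 0.00824%, 0.00947% and 0.00433% of all counts in the muscle libraries, with exact 95% binomial intervals of 0.00698% to 0.00966%, 0.00785% to 0.0113% and 0.00257% to 0.00685%. In lymph node it was 0.00113%, 0.001% and 0.001%, with no interval reaching above 0.00173%. The intervals of the tissues did not meet. In muscle library 4, 13 of the 18 counts were of a single gene, Atp2a1. These intervals cover the counting of reads only. The protocol describes no molecular identifiers, so amplified copies of the same molecule may be counted, and the intervals may be too narrow for transcripts.

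On the scaled level the sum of the 10 genes was 80.2, 91.4 and 48.4 CPM in muscle libraries 2, 3 and 4, against 11.99, 10.3 and 10.5 CPM in lymph node libraries. The mean was 73.3 ± 22.3 CPM in muscle libraries, against 10.9 ± 0.93 CPM in lymph node (SD over 3 libraries each), a ratio of 6.71. Without muscle library 4 the ratio was 7.81. Every muscle library lay above every lymph node library, and the muscle libraries differed among themselves more than the lymph node libraries did. For muscle library 4 this place rests mainly on Atp2a1, with 34.9 of its 48.4 CPM. The rest was 3 counts of Mylpf, 1 of Myh4 and 1 of Pvalb, at a depth where 3 counts equal 8.06 CPM. Whether its other fibre genes lay above lymph node could not be told from so few counts and was not tested. For each count of a fibre gene there were 1713, 1410 and 2425 counts of the 14 stromal markers in the muscle libraries, against 14450, 15829 and 16388 in the lymph node libraries. In bulk libraries fewer cells, or cell fragments, of a type and less RNA per cell cannot be told apart. No p is given for this sum, because its genes were chosen with earlier results of these data known.

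**Figure D1:**
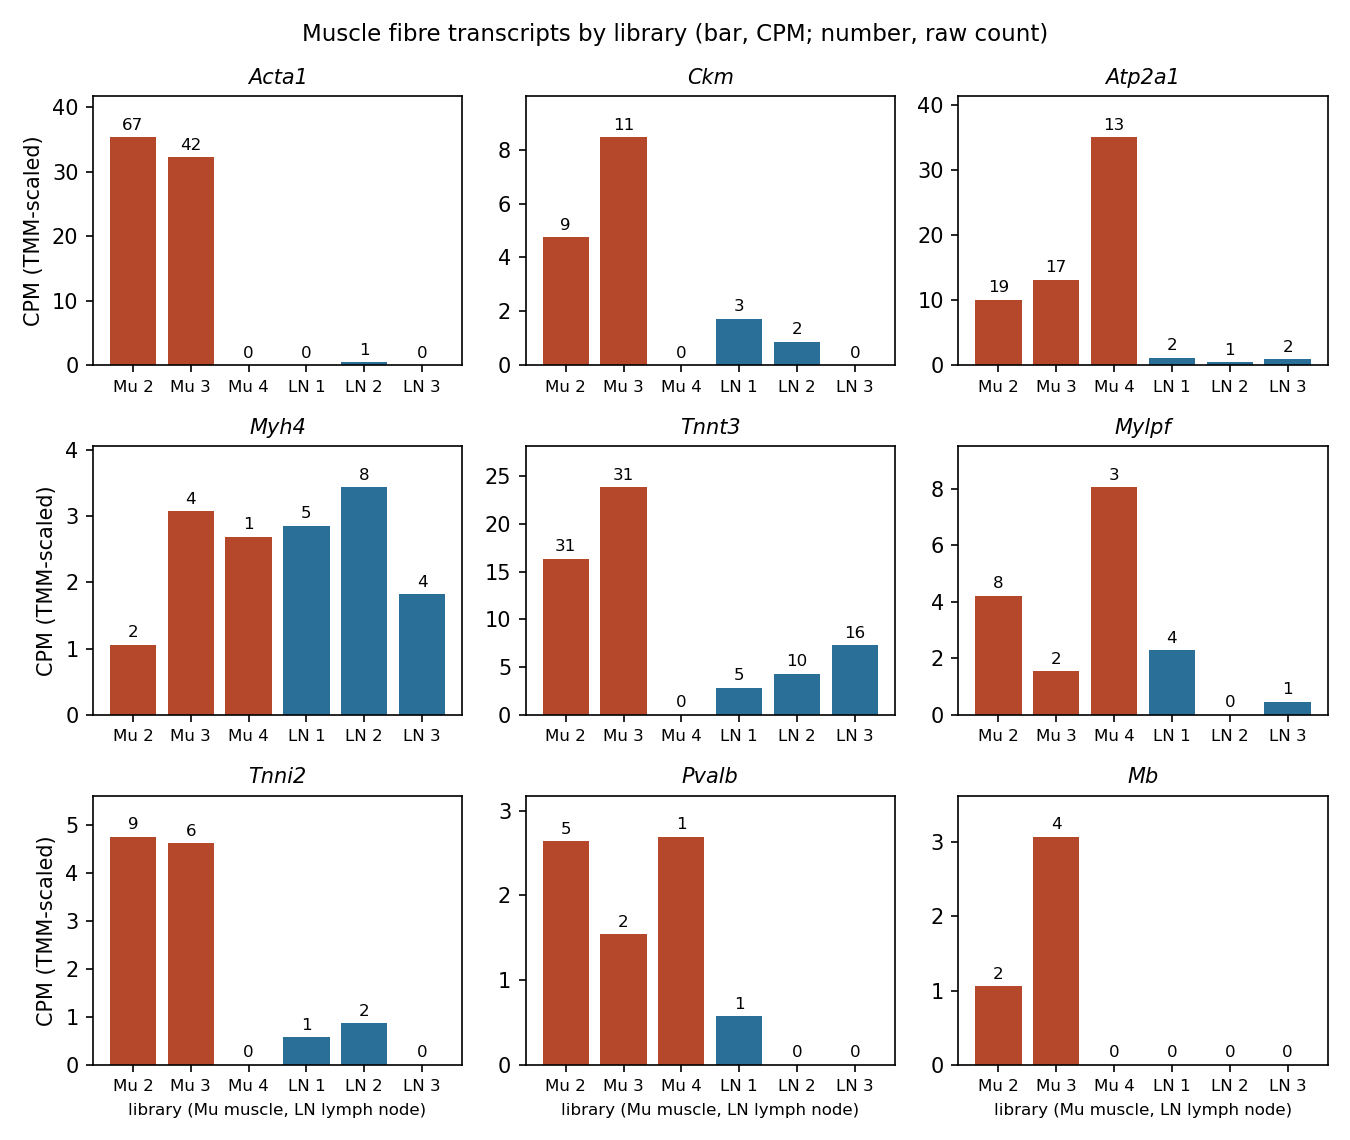
Scaled level (CPM, vertical axis, a separate scale per panel) of each fibre gene with counts, in muscle libraries 2 to 4 (red) and lymph node libraries 1 to 3 (blue), with the raw count printed over each bar. Acta1 stood at 35.3 and 32.3 CPM in muscle libraries 2 and 3 and at 0 in muscle library 4, while Atp2a1 was highest in muscle library 4.

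The test across all genes could be applied to few of the 10. Of 10823 genes that passed the filter on low counts, 468 (4.32%) differed between tissues at an adjusted p under 0.05 (two-sided quasi-likelihood test of edgeR with Benjamini-Hochberg adjustment), 158 of them (1.46%) higher and 2.86% of all lower in muscle. Only 2 of the 10 fibre genes, Atp2a1 and Tnnt3, passed that filter, and 1 of them was called, higher in muscle. Without muscle library 4 the filter needed fewer libraries with counts and 3 fibre genes were tested, Acta1 joining. All 3 were called higher in muscle, where 4.79% of 11246 tested genes were and 7.58% were lower (12.4% called in all). With no filter at all and all libraries, 9 of the 10 could be tested and 2 were called higher (Acta1 and Atp2a1), where 1.06% of 39490 genes were and 1.33% were lower (2.39% in all). With no filter and muscle library 4 left out, 4 of 9 were called higher, Acta1, Ckm, Atp2a1 and Tnnt3, where 1.26% of 38848 genes were and 2.42% were lower (3.68% in all). A gene with few lymph node counts passes the filter only when muscle is high, so these counts describe the libraries and are no measure of the 10 genes as a group.

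Among thin filament genes Acta1, which encodes the alpha-actin of skeletal muscle, had 67, 42 and 0 counts in muscle libraries 2, 3 and 4, against 0, 1 and 0 counts in lymph node libraries 1, 2 and 3. Scaled, this was 35.3, 32.3 and 0 CPM in muscle libraries, against 0, 0.43 and 0 CPM in lymph node. Muscle libraries 2 and 3 were high and alike, and muscle library 4 lay with the lymph node libraries. The summed muscle counts exceeded the lymph node count by a ratio of 192, with an exact 95% counting interval from 33.7 to 7638. Over all libraries the exact two-sided permutation test gave p = 0.4. With muscle library 4 left out, muscle exceeded lymph node by a log2 fold change of 7.23 ± 0.59 (SE, edgeR adjusted p = 1.26e-06), a size that rests on 1 lymph node count. When a lymph node library was left out and muscle library 4 kept, Acta1 passed the filter and was not called, with edgeR adjusted p between 0.0904 and 0.122. Of the 25-base words of its transcript, 8.7% also occur in other genes, most of them (5.7% of its words) in Actb, the cytoplasmic beta-actin.

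Acta1 was lower in muscle library 4 than in the other muscle libraries. At the pooled rate of muscle libraries 2 and 3, 12.7 counts were due there and 0 were found, a ratio with an exact 95% upper limit of 0.296. Muscle library 4 also had the higher blood cell levels given above, whose part in this difference was not tested.

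The troponin complex, which makes the thin filament sensitive to calcium, is represented by 3 genes. Tnnt3, the fast troponin T that ties the complex to tropomyosin, had 31, 31 and 0 counts in muscle libraries, against 5, 10 and 16 counts in lymph node libraries. Its level was 16.4, 23.8 and 0 CPM in muscle libraries, against 2.86, 4.30 and 7.28 CPM in lymph node. Muscle libraries 2 and 3 lay above all lymph node libraries. Muscle library 4 had no count, and since 3 counts there equal 8.06 CPM it could not be placed above or below lymph node. With all libraries the log2 fold change was 1.66 ± 0.72 and was not called (edgeR adjusted p = 0.313). Without muscle library 4 it was 1.99 ± 0.42 (edgeR adjusted p = 0.00563). In muscle library 4, 7.21 Tnnt3 counts were due at the rate of the other muscle libraries, and 0 were found, a ratio with an exact 95% upper limit of 0.527. Tnnt3 was the fibre gene with the most counts in lymph node, 31 of 68, and none of its 25-base words or exonic bases was shared with another annotated gene.

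Tnni2, the fast troponin I that inhibits the actin-myosin interaction, had 9, 6 and 0 counts in muscle libraries and 1, 2 and 0 counts in lymph node libraries. Levels were 4.75, 4.61 and 0 CPM against 0.571, 0.859 and 0 CPM, so that muscle libraries 2 and 3 lay above the lymph node libraries and muscle library 4 had no count. The ratio of summed counts was 8.79 (95% counting interval 2.49 to 47.4), and the exact two-sided permutation test over libraries gave p = 0.4, where 3 against 3 libraries can give no p below 0.1. Tnnc2, the fast troponin C that binds the calcium, had 0 counts in all 6 libraries. On chromosome 2, 74% of its exonic bases lie under exons of Ube2c, a ubiquitin-conjugating enzyme encoded on the opposite strand. The strand setting and the treatment of reads that fall on both genes are unknown, so the transcript may be present without being counted. Ube2c itself had 10, 3 and 9 counts in muscle libraries, against 0, 1 and 2 counts in lymph node libraries.

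Of the thick filament genes, Mylpf, the fast regulatory light chain of myosin, had 8, 2 and 3 counts in muscle libraries and 4, 0 and 1 counts in lymph node libraries. Its level was 4.22, 1.54 and 8.06 CPM in muscle libraries, against 2.28, 0 and 0.455 CPM in lymph node, and the tissues overlapped. The ratio of summed counts was 4.57 (95% counting interval 1.53 to 16.4; exact two-sided permutation p = 0.2). Myh4, the myosin heavy chain of the fastest fibres, had 2, 4 and 1 counts in muscle libraries, against 5, 8 and 4 counts in lymph node libraries. At 2.27 ± 1.07 CPM in muscle libraries, against 2.70 ± 0.82 CPM in lymph node (SD over 3 libraries each) it was the only one of the 9 fibre genes with counts that was not higher on average in muscle. Its ratio of 0.724 had a 95% counting interval from 0.254 to 1.84, which spans no difference. Of its 25-base words 35.7% occur in other genes, mostly in the neighbouring heavy chains Myh1 (23.8%), Myh2 (20.5%) and Myh8 (18.8%), so reads may be shared among them and its counts are uncertain.

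Atp2a1, which encodes the calcium pump of the sarcoplasmic reticulum in fast fibres, had 19, 17 and 13 counts in muscle libraries, against 2, 1 and 2 counts in lymph node libraries. Its level was 10.02, 13.1 and 34.9 CPM in muscle libraries, against 1.14, 0.43 and 0.911 CPM in lymph node. The tissues did not overlap, and muscle library 4 was the highest. The log2 fold change was 4.27 ± 0.73 (SE, edgeR adjusted p = 0.0104), and without muscle library 4 it was 3.72 ± 0.63 (edgeR adjusted p = 9.45e-04). The call was lost when lymph node library 1, 2 or 3 was left out, with edgeR adjusted p = 0.0644, 0.0957 and 0.0836, while the fold stayed between 3.97 and 4.53 on the log2 scale. The level in muscle library 4 was 3.10 times that of muscle libraries 2 and 3 together (95% counting interval 1.51 to 5.99). Of the exonic bases of Atp2a1 on chromosome 7, 21.9% lie under exons of Rabep2, an endosomal trafficking gene on the opposite strand. Rabep2 had 46, 40 and 2 counts in muscle libraries, against 36, 63 and 49 counts in lymph node libraries. In muscle library 4, 10.01 Rabep2 counts were due at the rate of the other muscle libraries, and 2 were found. That ratio was 0.2 (95% counting interval 0.0238 to 0.744). How reads on the shared bases were divided between the genes was not tested.

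Pvalb, the calcium buffer parvalbumin, had 5, 2 and 1 counts in muscle libraries and 1, 0 and 0 counts in lymph node libraries. Its level was 2.64, 1.54 and 2.69 CPM, against 0.571, 0 and 0 CPM, and the tissues did not overlap. The ratio was 14.1, with a 95% counting interval from 1.89 to 624 that shows how little 9 counts can fix, and the exact two-sided permutation p was 0.1, the smallest that 3 against 3 libraries allow.

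Of the genes for energy and oxygen supply, Ckm, the muscle creatine kinase that regenerates ATP, had 9, 11 and 0 counts in muscle libraries, against 3, 2 and 0 counts in lymph node libraries. Its level was 4.75, 8.45 and 0 CPM in muscle libraries, against 1.71, 0.859 and 0 CPM in lymph node. Muscle libraries 2 and 3 lay above the lymph node libraries, with a ratio over all libraries of 7.03 (95% counting interval 2.56 to 24.0; exact two-sided permutation p = 0.4). For muscle library 4, 2.33 Ckm counts were due, which is under the floor of 3 counts, so its 0 was not distinguishable at this depth. Of the exonic bases of Ckm, 15.5% lie under exons of A930016O22Rik, an antisense gene on the opposite strand. A930016O22Rik had 2, 0 and 0 counts in muscle libraries, against 1, 1 and 0 counts in lymph node libraries. Mb, the oxygen carrier myoglobin, had 2, 4 and 0 counts in muscle libraries and 0 counts in every lymph node library. The exact 95% counting interval of the ratio starts at 2.07, and the exact two-sided permutation p was 0.4. Of its exonic bases 31.9% lie under exons of Gm49540 (27.6%) and Apol6 (4.3%) on the opposite strand in GENCODE M21. Gm49540 is not a row of the count table.

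**Figure D2:**
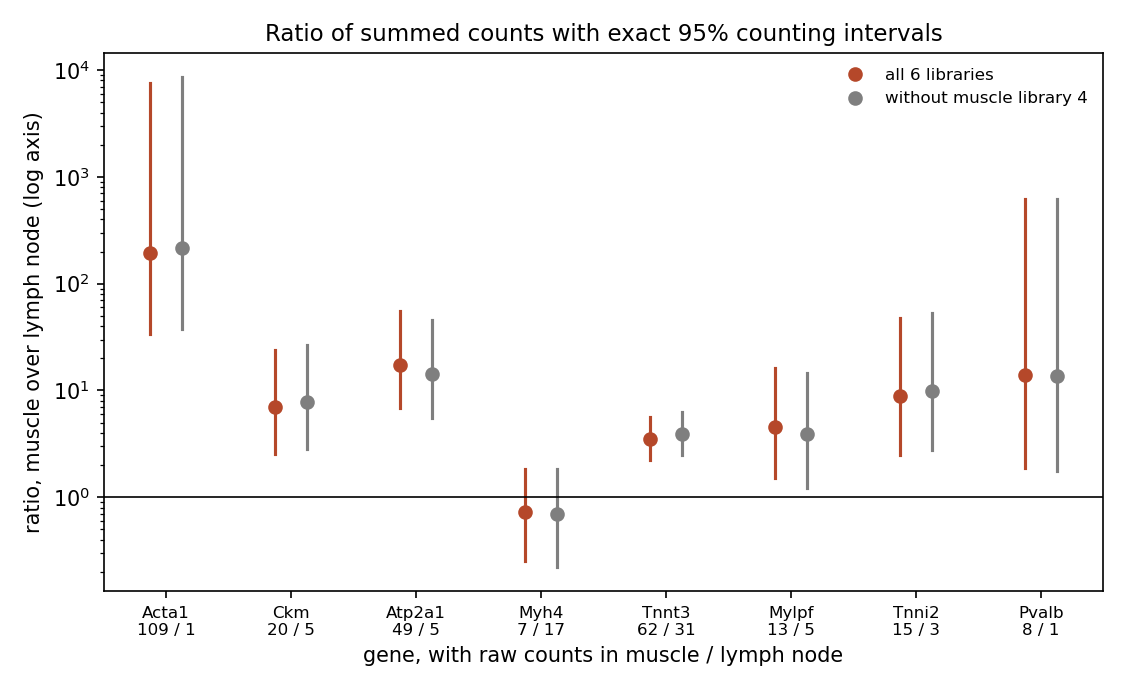
Ratio of summed scaled counts, muscle over lymph node, on a log axis, for the 8 fibre genes with lymph node counts. Lines are exact 95% binomial intervals that cover the counting of reads and no library-to-library spread. Red points use all 6 libraries and grey points leave out muscle library 4. The intervals of 7 genes lie above 1 in both forms, and that of Myh4 (0.724) spans 1.

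Without muscle library 4 the ratios of summed counts were 214 (37.6 to 8527) for Acta1, 3.93 (2.51 to 6.25) for Tnnt3, 9.81 (2.78 to 52.9) for Tnni2, 3.93 (1.22 to 14.6) for Mylpf and 0.693 (0.224 to 1.84) for Myh4, with 95% counting intervals in brackets. For the calcium and supply genes they were 14.1 (5.53 to 46.1) for Atp2a1, 13.7 (1.77 to 619) for Pvalb and 7.85 (2.86 to 26.8) for Ckm, and for Mb the interval starts at 2.31. Each kept the direction it had with all libraries. The exact two-sided permutation p without muscle library 4 was 0.1, the smallest that 2 against 3 libraries allow, for all but Mylpf (0.3) and Myh4 (0.6) of the 9 genes with counts.

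Counted by overlap, the muscle and lymph node levels were separate for 2 of the 9 fibre genes with counts, Atp2a1 and Pvalb, both higher in muscle. Over all 39490 genes with counts, 4.91% were separate with muscle higher and 6.07% with muscle lower. Leaving out muscle library 4, they were separate and higher in muscle for 7 of 9, all but Mylpf and Myh4, and for 11.8% of 38848 genes, with 9.1% lower in muscle and none of the 9. The 5 fibre genes that became separate, Acta1, Ckm, Tnnt3, Tnni2 and Mb, each had 0 counts in muscle library 4.

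Levels between genes were compared per length, as mean CPM per kilobase of annotated exons. Over muscle libraries 2 and 3 the order was Acta1 (22.01 ± 1.41), Tnnt3 (12.7 ± 3.34), Atp2a1 (3.32 ± 0.62), Tnni2 (3.13 ± 0.06), Mylpf (2.71 ± 1.79), Ckm (2.27 ± 0.90), Pvalb (2.00 ± 0.75), Mb (1.38 ± 0.96) and Myh4 (0.343 ± 0.24; SD, n = 2 for all). Acta1 and Tnnt3 stood apart from each other and from the rest by more than their spread. Neighbours from Atp2a1 to Myh4 did not differ beyond their spread. In lymph node the order per kilobase was led by Tnnt3 (3.04 ± 1.43), followed by Mylpf (0.86 ± 1.14) and Myh4 (0.45 ± 0.14; SD, n = 3), and Acta1, the first in muscle, was at 0.0932 ± 0.16. Mylpf and Myh4 did not differ beyond their spread there.

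The make-up of the fibre counts differed between libraries as well. Acta1 made up 44.1% of the 152 counts of muscle library 2 (exact 95% interval 36.0% to 52.4%) and 35.3% of the 119 counts of muscle library 3 (26.8% to 44.6%), intervals that overlap. It made up 0% of the 18 counts of muscle library 4 (up to 18.5%). Atp2a1 made up 12.5% (7.70% to 18.8%) and 14.3% (8.55% to 21.9%) in muscle libraries 2 and 3, and 72.2% (46.5% to 90.3%) in muscle library 4. In lymph node the leading gene was Tnnt3, tied with Myh4 in library 1, with 23.8% (8.22% to 47.2%), 41.7% (22.1% to 63.4%) and 69.6% (47.1% to 86.8%) in libraries 1, 2 and 3, alongside Myh4 with 23.8%, 33.3% and 17.4%. The intervals of muscle libraries 2 and 3 overlapped for Acta1 and for Atp2a1, and those of muscle library 4 lay apart from both, below for Acta1 and above for Atp2a1. Of the 10 genes, 9, 9 and 4 had counts in muscle libraries 2, 3 and 4, against 7, 6 and 4 in the lymph node libraries, at the unequal depths given above.

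**Figure D3:**
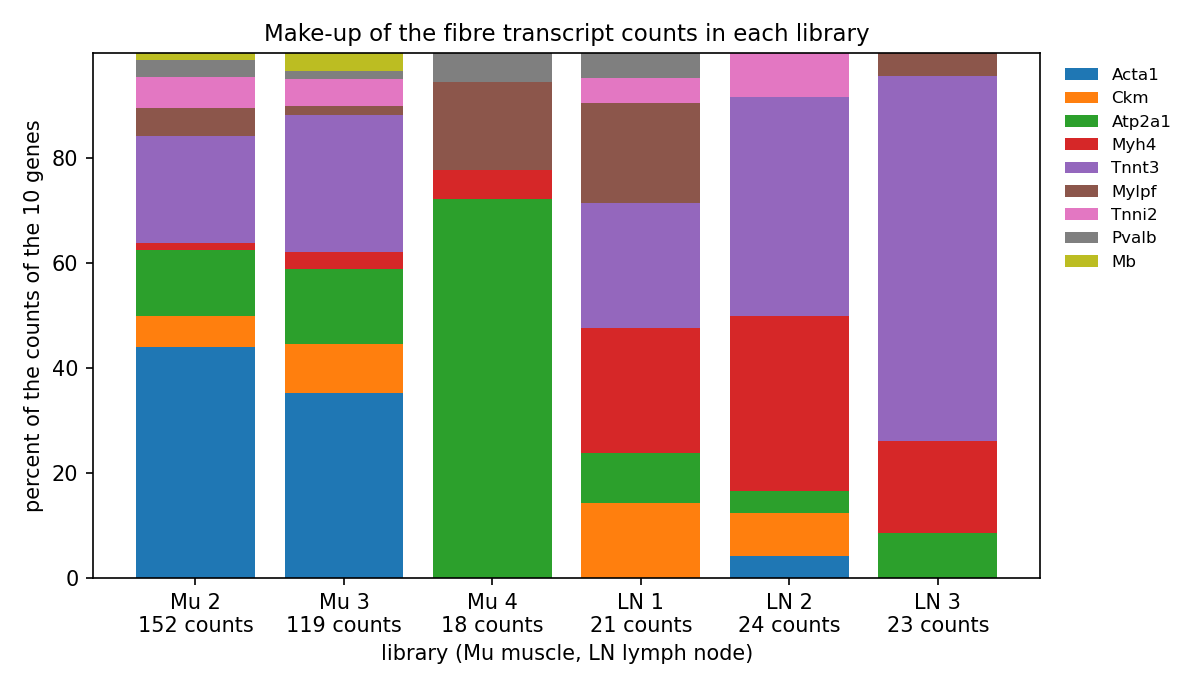
Percent of the counts of the 10 fibre genes that each gene contributed (vertical axis) in every library, with the number of counts under each bar. Acta1 and Tnnt3 led in muscle libraries 2 and 3, Atp2a1 made up 72.2% in muscle library 4, and Tnnt3 and Myh4 together made up most counts in lymph node libraries 2 and 3.

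Other genes of the fibre were read from 5 further lists with 70 genes, of which 13 passed the filter and none was called with all libraries by edgeR or limma-voom (1 by DESeq2), while 3 had an unadjusted edgeR p under 0.05. With muscle library 4 left out edgeR called 2 of 13 tested, both higher in muscle, where 4.79% of all tested genes were. They were Cmya5, which encodes a protein of the sarcomere margin, and Pygm, the muscle glycogen phosphorylase. Cmya5 had 21, 18 and 3 counts in muscle libraries, against 7, 10 and 7 counts in lymph node libraries (log2 fold change 1.57 ± 0.46, edgeR adjusted p = 0.107, and 1.67 ± 0.45, adjusted p = 0.0249 without muscle library 4). Pygm had 27, 15 and 18 counts against 8, 10 and 7 counts (2.39 ± 0.63, edgeR adjusted p = 0.0718, and 1.68 ± 0.44, adjusted p = 0.0217 without muscle library 4). As with Atp2a1, the highest Pygm level was in muscle library 4, at 48.4 CPM against 14.2 and 11.5 CPM in muscle libraries 2 and 3. The tissues did not overlap for either gene. Both were named after their values were seen.

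Of the 8 other fast sarcomere genes none passed the filter. Their sum was 21.6, 19.2 and 16.1 CPM in muscle libraries, against 4.57, 12.9 and 17.8 CPM in lymph node, so the tissues overlapped. Actn3, the Z disc actinin of fast fibres, had 13, 5 and 4 counts in muscle libraries and 4, 7 and 5 in lymph node. Scaled, this was 6.86, 3.84 and 10.8 CPM, against 2.28, 3.01 and 2.28 CPM, and the tissues did not overlap. The perinatal heavy chain Myh8 had 5, 7 and 0 against 0, 5 and 12 counts, and its levels overlapped. The 13 slow and cardiac sarcomere genes summed to 16.9, 7.68 and 13.4 CPM in muscle libraries, against 7.42, 12.5 and 6.83 CPM in lymph node, and none passed the filter. Their leading genes were the cardiac heavy chain Myh6 (0, 2 and 1 counts against 0, 7 and 5) and the cardiac troponin T gene Tnnt2 (8, 0 and 0 against 2, 2 and 1).

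Of 17 scaffold and Z disc genes 6 were tested and 0 called, with a median log2 fold change of 0.79 where that of all tested genes was 0.02. Their sum was 119, 122 and 253 CPM in muscle libraries, against 77.7, 91.1 and 98.8 CPM in lymph node. It was the only sum of the further fibre lists that did not overlap between tissues, and it was highest in muscle library 4. Ttn, the giant spring protein titin, measured 51.4 ± 10.1 CPM in muscle libraries, against 33.6 ± 9.35 CPM in lymph node (SD over 3 libraries each; log2 fold change 0.56 ± 0.28, edgeR adjusted p = 0.399). Neb, the thin filament ruler nebulin, measured 39.0 ± 40.7 CPM against 17.7 ± 5.57 CPM (0.85 ± 0.65, edgeR adjusted p = 0.631), and without muscle library 4 its log2 fold change was -0.20 (edgeR adjusted p = 0.791). Of 16 excitation and calcium handling genes 1 was tested and not called. This was Atp2a2, the pump form that most cell types use, at 79.1 ± 19.5 CPM in muscle libraries, against 91.3 ± 16.2 CPM in lymph node (-0.18 ± 0.24, edgeR adjusted p = 0.809). Ryr1, the calcium release channel of fibres, had 6, 5 and 2 counts in muscle libraries, against 4, 6 and 8 counts in lymph node libraries. Scaled, this was 3.16, 3.84 and 5.38 CPM, against 2.28, 2.58 and 3.64 CPM, and the tissues overlapped. Of 16 energy metabolism genes 6 were tested and 0 called, with a median log2 fold change of -0.15. Aldoa, an aldolase of many cell types, measured 320.5 ± 35.3 CPM against 389 ± 26.8 CPM (-0.27 ± 0.17, edgeR adjusted p = 0.536), and the phosphorylase kinase subunit Phka1 20.4 ± 13.1 CPM against 31.7 ± 4.59 CPM (-0.45 ± 0.40, edgeR adjusted p = 0.687).

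Genes of myogenic cells, the precursors of fibres, were read as well. Of 14 satellite cell and myoblast genes 2 were tested and 1 was called, higher in muscle. Musk, the receptor kinase that organises the neuromuscular junction, had 59, 83 and 1 counts in muscle libraries, against 6, 8 and 13 counts in lymph node libraries. Its level was 31.1, 63.8 and 2.69 CPM in muscle libraries, against 3.43, 3.44 and 5.92 CPM in lymph node, so muscle libraries 2 and 3 were high, while the 1 count of muscle library 4 could not be told from the lymph node levels at its depth. The log2 fold change was 3.05 ± 0.70 (edgeR adjusted p = 0.0424), a call that was lost when any 1 library other than muscle library 4 was left out (adjusted p up to 0.269) and in limma-voom. Des, the intermediate filament desmin of muscle cells, had 84, 60 and 6 counts against 38, 36 and 34 counts (1.13 ± 0.37, edgeR adjusted p = 0.16, and 1.37, adjusted p = 0.00148 without muscle library 4). The defining satellite cell factor Pax7 had 0, 2 and 0 counts in muscle libraries, against 1, 0 and 3 counts in lymph node libraries, and Myf5 had 0 counts in all. The list summed to 82.8, 118 and 34.9 CPM in muscle libraries, against 29.7, 24.1 and 26.4 CPM in lymph node, of which Musk and Des made up most in muscle libraries 2 and 3.

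Smooth muscle and mural cells share contractile proteins with fibres through related genes. Of 12 mural genes 2 were tested and 0 called, and their sum was 44.3, 46.1 and 151 CPM in muscle libraries, against 74.2, 43.0 and 39.6 CPM in lymph node libraries. The smooth muscle actin Acta2 had 10, 6 and 0 counts in muscle libraries and 7, 3 and 6 counts in lymph node libraries. Mylk, the myosin light chain kinase, measured 40.4 ± 39.5 CPM against 16.1 ± 7.90 CPM (1.09 ± 0.66, edgeR adjusted p = 0.513). Its level was 17.4, 17.7 and 86.0 CPM in muscle libraries 2, 3 and 4, and without muscle library 4 the log2 fold change was 0.15 (edgeR adjusted p = 0.875). The receptor Notch3 measured 8.88 ± 3.46 CPM against 12.7 ± 2.47 CPM (-0.41 ± 0.42, edgeR adjusted p = 0.741). Of 5 tendon genes 2 were tested and 0 called. Tnmd, the tendon membrane protein tenomodulin, had 30, 49 and 1 counts in muscle libraries, against 2, 14 and 3 counts in lymph node libraries (2.79 ± 0.80, edgeR adjusted p = 0.103, and 3.09, adjusted p = 0.00172 without muscle library 4). Fmod, the collagen-binding fibromodulin, had 28, 102 and 0 counts against 94, 19 and 5 counts (0.74 ± 1.08, edgeR adjusted p = 0.823).

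**Figure D4:**
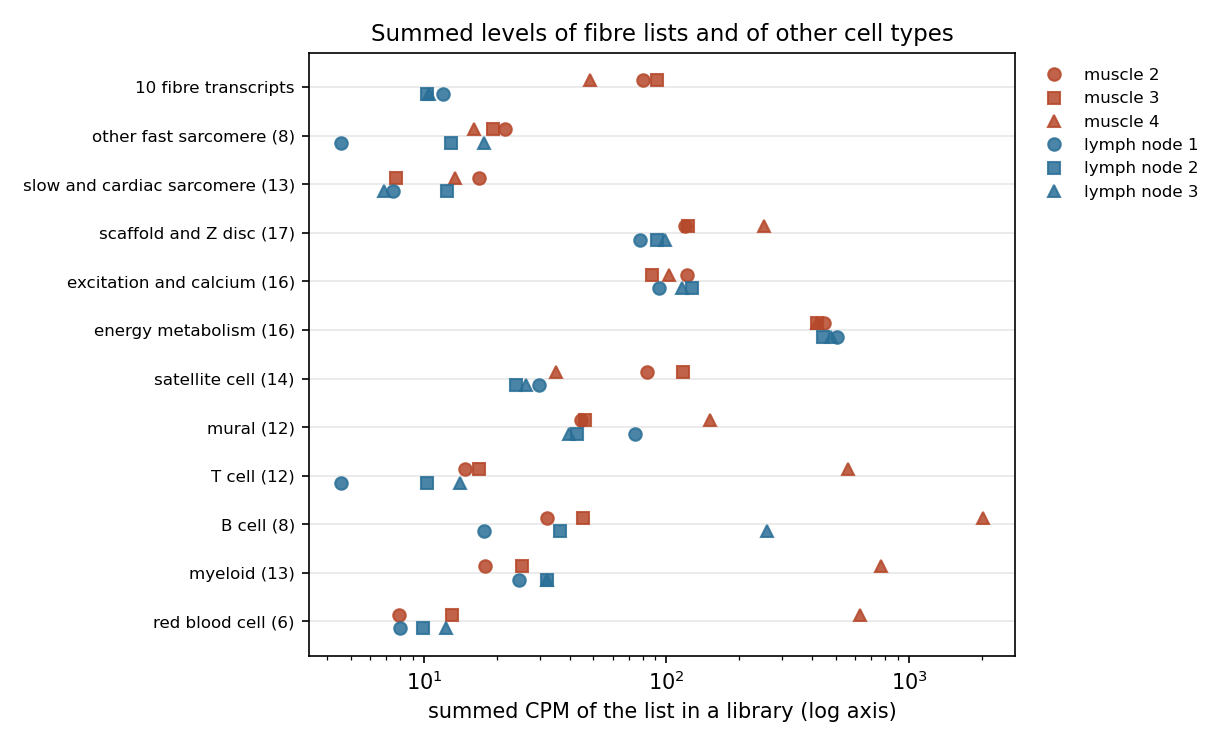
Summed CPM of each gene list in a library (horizontal log axis), with muscle libraries in red above and lymph node libraries in blue below, and the number of genes of each list in brackets. The 10 fibre genes were separate between tissues (48.4 to 91.4 against 10.3 to 11.99 CPM). Of the other fibre lists 4 of 5 overlapped, all but scaffold and Z disc (119 to 253 against 77.7 to 98.8 CPM). Muscle library 4 was highest for all blood cell lists.

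The remaining lists describe what else the libraries held. Of 14 stromal markers 1 was called, the complement inhibitor Serping1, lower in muscle at 2461 ± 411 CPM against 4652 ± 200 CPM (-0.92 ± 0.19, edgeR adjusted p = 0.0284), a call that was lost when any 1 library other than muscle library 4 was left out and with total-count scaling. The actin-severing protein gelsolin (Gsn) had a log2 fold change of -0.55 and the collagen Col3a1 one of -0.23, neither called. Both tested adipocyte genes fell in muscle, the carbonic anhydrase Car3 (4, 3 and 0 counts against 67, 219 and 157) at a log2 fold change of -5.09 ± 0.55, and the fatty acid carrier Fabp4 (2, 2 and 2 counts against 42, 74 and 63) at -3.94 ± 0.53 (edgeR adjusted p = 0.00114 and 0.00359). Of 9 endothelial genes 1 was tested, the receptor Tek, with a log2 fold change of -0.19 that was not called, and Pecam1 had 4, 5 and 22 counts in muscle libraries, against 4, 3 and 6 counts in lymph node libraries. Of 8 Schwann and nerve genes 4 were tested and 0 called, among them the myelin genes Pmp22 (log2 fold change 0.64) and Mbp (-1.14). In the blood cell lists 4 genes were tested and 0 called, Ighm (1.81), Igkc (2.47), Ptprc (4.595) and Hbb-bs (4.74), with the highest CPM in muscle library 4 for each. Further leading genes were Lck (3, 4 and 58 counts against 2, 4 and 2), Cd2 (1, 2 and 24 against 1, 3 and 5), Hba-a1 (2, 6 and 36 against 1, 1 and 4) and Cd68 (1, 3 and 0 against 6, 17 and 34). By edgeR, 0 of the 12 T cell genes were tested, all lying below the filter. With muscle library 4 left out, edgeR called 4 of 14 stromal markers lower in muscle (Serping1, Gsn, Lum and Dpp4) and 3 of 4 tested Schwann and nerve genes (Pmp22, Mbp and Ncam1). Among the genes named above these included Gsn (adjusted p = 0.0468) and Mbp (-3.07, adjusted p = 3.91e-04) as lower and Pmp22 (0.75, adjusted p = 0.00122) as higher in muscle, and the myeloid gene Cd68 was also called lower (-2.75, adjusted p = 0.0471). In muscle libraries 2 and 3, where the fibre genes were high, the T cell, B cell, myeloid and red blood cell sums reached at most 16.9, 45.3, 25.4 and 13.1 CPM, against at most 14.1, 261, 32.3 and 12.3 CPM in lymph node libraries.

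The genes whose pattern over the 6 libraries was most like the sum of the 10 fibre genes were Cd9, Robo1, Fry, Tmem255b and Knl1, with Pearson r between 0.994 and 0.997 on log2(CPM + 1) among 12565 genes. With 6 points that share 2 tissues, such values describe a tissue difference with a lower level in muscle library 4, and they carry no p. Cd9, a tetraspanin of the cell surface, measured 533, 594 and 401 CPM in muscle libraries, against 154, 119 and 127 CPM in lymph node libraries. Robo1, a receptor for Slit guidance cues, measured 78.6, 91.4 and 48.4 CPM against 18.8, 15.0 and 17.3 CPM. Genes picked for likeness to the fibre sum could hardly be at 0 in muscle library 4, where Acta1, Tnnt3, Ckm, Tnni2 and Mb had no counts. Of these, Ckm, Tnni2 and Mb were due only 2.33, 1.75 and 0.70 counts there at the rate of muscle libraries 2 and 3. That is under the floor of 3 counts, so their 0 was not distinguishable.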

How the data were processed

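Messenger RNA was measured in 6 libraries. Per the labels' protocols, polyadenylated RNA of sorted cells was copied from an oligo(dT) primer, amplified, fragmented with a transposase and sequenced as short read pairs. The deposited values are raw counts per gene symbol; the submitters' processing notes name STAR 2.5.4, featureCounts and the build mm10. No annotation release, strand setting or rule for ambiguous reads is given, so a gene and its antisense partner may hold each other's reads. Lymph node columns match sample titles, while muscle columns were used as 3 replicates by name. No column was left unmatched.

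The counts as deposited were analysed with edgeR 4.0.16 in R 4.3.3 (filterByExpr, TMM scaling, quasi-likelihood F test, Benjamini-Hochberg, threshold 0.05) over all 6 libraries. CPM were computed with the TMM-scaled library totals. Standard errors are log2 fold changes over the root of the F statistic, and at a handful of counts they understate counting error. Genes below the filter have counts, ratios of summed counts with exact binomial intervals, a floor of 3 counts for values at 0, and exact permutation tests over libraries. Alternatives were other scalings and filters, DESeq2 1.42.0, limma-voom (limma 3.58.1), leaving out each library, a replicate block and, added after the data were seen, no filter together with leaving out muscle library 4. The replicate block took the column number as the block. Muscle library 4 and lymph node library 1 stand alone in their blocks and do not inform its tissue difference. The fit was tested on simulated data. Exonic bases and 25-base words came from GENCODE M21 (GRCm38, also called mm10) and promoters from RefSeq. Promoter windows were matched for 8 of the 10 genes.

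The members and lists were chosen with earlier results of these data known. Text names all 10 fibre genes, and of each of 16 further lists up to 4 called genes by smallest p and the 2 with the most counts. It also names the 5 genes most like the fibre sum among those with at least 30 counts and counts in at least 3 libraries. Outside that rule, Acta2, Pax7, Myf5 and Pdgfra were named as markers. Actb, Myh1, Myh2, Ube2c, Rabep2, A930016O22Rik, Apol6 and Gm49540 were named as genes that overlap or share words with a fibre gene. Cmya5, Pygm, Lum, Dpp4 and Ncam1 were named after their calls without muscle library 4 were seen.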

Additional observations from a re-analysis of the deposited data

How the results depend on the processing

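Every count of calls was sensitive to the libraries used. Of the 10 fibre genes 1 was called with all libraries, under each other scaling, the stricter filter, DESeq2 and limma-voom. Leaving out 1 library gave 0 to 3 fibre genes (0 without any 1 lymph node library, 3 without muscle library 4). No filter gave 2, no filter without muscle library 4 gave 4 (chosen after seeing the data), and the replicate block gave 2. Over all genes the 468 calls became 945 with no filter, 1430 with no filter and without muscle library 4, 1530 with the replicate block, and 142 to 1391 when 1 library was left out. In the 16 other lists the 4 calls became 28 with no filter, 20 with no filter and without muscle library 4, 7 with DESeq2, 18 with the replicate block, and 2 to 15 when 1 library was left out. Causes were not tested, except that the filter itself decides which genes are tested. The mean sum of the fibre genes stayed between 63.0 and 86.1 CPM in muscle libraries, against between 10.5 and 11.3 CPM in lymph node over the scalings and libraries left out, and their ratio between 5.83 and 7.81.

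Column numbers are shared by the tissues in a pair of cases (2 and 3), and deviations from the tissue mean correlated at -0.03 and 0.02 over genes. Muscle column numbers are not tied to sample titles. With 3 libraries per tissue, these values cannot settle whether libraries of the same number are paired. With the replicate block Tnnt3 had a log2 fold change of 1.79 (edgeR adjusted p = 0.0112) and Atp2a1 3.98 (adjusted p = 0.0015). The tissue difference in that fit rests on libraries 2 and 3 of each tissue, with little left to estimate the spread.

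Directions that turned belong to genes not called with all libraries and the filter, yet Ighm and Igkc were called in opposite directions by other settings. They were called higher with no filter (1.42 and 2.06, edgeR adjusted p = 5.77e-04 and 4.04e-08), and lower with no filter and without muscle library 4 (adjusted p = 1.07e-09 and 4.3e-14) and with the replicate block (adjusted p = 0.0105 and 1.59e-05). Without muscle library 4 the log2 fold change of Neb was -0.20, Tek 0.10, Ighm -1.76, Igkc -3.12 and Hbb-bs -0.0296. With no filter as well they were -0.26, 0.0267, -1.82, -3.18 and -0.0825. With the replicate block they were -0.29, 0.0302, -1.84, -3.38 and -0.30, and Ptprc was -0.076. In limma-voom Ighm was -0.20 and Igkc -0.80. When 1 library was left out, the log2 fold change reached -0.20 to 1.29 for Neb, -1.03 to 2.66 for Fmod, -0.57 to 0.10 for Tek, -1.76 to 3.68 for Ighm, -3.12 to 5.70 for Igkc and -0.0296 to 5.40 for Hbb-bs, and the ratio of Myh4 0.485 to 1.09. Depth limits muscle library 4 most, where 3 counts equal 8.06 CPM, so the absence there of genes due at fewer counts was not distinguishable.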
